A study of Mus musculus with 4 samples.

Results

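The Hox genes of the 4 mouse clusters were examined together with the Meis, Pbx and Pknox genes that code for their DNA-binding partners, in hematopoietic stem cells and in the multipotent progenitors into which they mature. Of 40 named genes, 37 had at least 1 probe set whose platform annotation names that gene alone, and these 37 genes carried 62 probe sets, out of 18193 genes and 34945 probe sets so annotated on the array. They were 9 genes of the Hox A cluster, 9 of Hox B, 6 of Hox C, 7 of Hox D, and 6 cofactor genes, namely Meis1, Meis2, Meis3, Pbx2, Pbx3 and Pknox1. Hoxa6, Hoxb8 and Hoxd4 had no probe set of their own, and the probe sets that Hoxb8 shares with Hoxb7 and Hoxd4 with Hoxd3 are described separately.

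All cells came from C57BL/6 mice, and no genotype or treatment sets the groups apart. KSL names a sort gate that takes cells with c-Kit and a further stem cell antigen and without lineage markers, and it holds the earliest blood cells, and the 2 HSC samples were the KSL cells without surface CD34 and the 2 MPP samples those with it, both obtained by cell sorting. RNA of 3000 cells per sample was amplified in a pair of cycles, labelled with biotin and hybridised to 1 Affymetrix Mouse Genome 430 2.0 array each. The labels call the samples of a group biological replicates and give no animal, age or sex, so a p-value here speaks only of how much these 4 samples vary, which may be technical. A bulk array cannot tell fewer cells that express a gene apart from less RNA in each cell.

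Hox genes code for homeodomain transcription factors that stand in 4 clusters, A to D, and carry position numbers, with low numbers at the 3' end of a cluster. In the embryo they are switched on in order along the cluster and set position along the body axis. In blood, members of the A and B clusters are the ones best known from stem and progenitor cells, and Hoxb4 and Hoxa9 in particular are known for driving the expansion of these cells when overexpressed. Hox proteins bind DNA with partners of the TALE class of homeodomain proteins, in which Pbx proteins bind beside them and Meis and Pknox (Prep) proteins bind Pbx.

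Start regions of the genes on which the results below turn are shown first, so that the members can be seen as DNA as well as signal. The RefSeq table of assembly GRCm38.p6 held 27 windows of 25 of the 40 named genes, each running from 250 bases before to 50 bases after a transcription start. The windows shown belong to Hoxb4, Hoxa5, Hoxa10, Meis1 and Meis2, the genes with higher signal in HSC that the table holds, and to Hoxa9, the bright Hox gene that was not called. Hoxb2, Hoxb3, Hoxb5, Hoxb6 and Pbx3 are named only. All are written 5' to 3' on the strand of the gene, and capitals mark matches to 4 motifs searched on both strands, namely TGATNNAT (a Hox-Pbx site), TGACAG (a Meis site), TATAAA (the TATA box) and CCAAT (the NF-Y box).
Hoxb4, chr11:96318017-96318316, plus strand: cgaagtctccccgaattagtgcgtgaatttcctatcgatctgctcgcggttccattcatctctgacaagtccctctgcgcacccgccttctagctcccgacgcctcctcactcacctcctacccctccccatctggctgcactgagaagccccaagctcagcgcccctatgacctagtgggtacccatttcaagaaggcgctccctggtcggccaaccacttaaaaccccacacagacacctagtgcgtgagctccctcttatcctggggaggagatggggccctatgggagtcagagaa
Hoxa5, chr6:52204538-52204837, minus strand: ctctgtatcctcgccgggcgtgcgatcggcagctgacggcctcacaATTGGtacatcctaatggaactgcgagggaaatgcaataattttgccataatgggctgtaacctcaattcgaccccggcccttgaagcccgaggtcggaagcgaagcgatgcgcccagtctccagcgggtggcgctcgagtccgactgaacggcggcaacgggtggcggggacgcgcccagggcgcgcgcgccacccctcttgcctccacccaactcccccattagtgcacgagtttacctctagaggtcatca
Hoxa10, chr6:52234890-52235189, minus strand: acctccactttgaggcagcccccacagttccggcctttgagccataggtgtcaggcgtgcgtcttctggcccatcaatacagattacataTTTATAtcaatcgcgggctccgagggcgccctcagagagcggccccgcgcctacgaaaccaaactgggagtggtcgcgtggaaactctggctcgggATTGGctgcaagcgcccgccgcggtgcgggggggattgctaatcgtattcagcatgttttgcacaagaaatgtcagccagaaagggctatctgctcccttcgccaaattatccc
Hoxa9, chr6:52227321-52227620, minus strand: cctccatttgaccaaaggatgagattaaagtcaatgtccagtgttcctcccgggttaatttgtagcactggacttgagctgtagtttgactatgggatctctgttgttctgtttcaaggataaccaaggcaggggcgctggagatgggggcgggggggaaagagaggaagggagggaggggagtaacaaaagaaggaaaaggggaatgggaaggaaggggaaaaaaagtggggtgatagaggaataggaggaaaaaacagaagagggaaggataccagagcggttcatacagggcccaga
Meis1, chr11:19018920-19019219, minus strand: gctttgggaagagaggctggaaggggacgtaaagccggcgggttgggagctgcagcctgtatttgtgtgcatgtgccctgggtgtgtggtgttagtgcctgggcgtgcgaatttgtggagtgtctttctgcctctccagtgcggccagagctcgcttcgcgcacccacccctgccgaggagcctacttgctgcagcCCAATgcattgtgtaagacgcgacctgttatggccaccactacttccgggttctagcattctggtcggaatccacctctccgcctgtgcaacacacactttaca
Meis2, chr2:116064570-116064869, minus strand: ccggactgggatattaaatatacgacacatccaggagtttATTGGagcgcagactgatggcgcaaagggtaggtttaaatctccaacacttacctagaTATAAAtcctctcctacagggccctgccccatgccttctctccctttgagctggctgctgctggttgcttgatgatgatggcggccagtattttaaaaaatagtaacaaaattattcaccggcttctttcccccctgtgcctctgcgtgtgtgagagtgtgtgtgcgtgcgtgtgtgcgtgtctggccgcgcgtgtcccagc
Hoxa10 has another start in the table, at chr6:52240805-52241104, whose window held no match to any of the 4 motifs and is not shown. The NF-Y box stood in 4 of these 6 windows (Hoxa5, Hoxa10, Meis1 and Meis2). The TATA box letters stood in 2 of them (Hoxa10 and Meis2), where the matches did not overlap each other. These letters stood at -160 (Hoxa10, on the opposite strand) and -152 (Meis2) from the start, and their use as a TATA box was not tested. Neither the Hox-Pbx nor the Meis letters stood in any of the 6. Across all 27 member windows the NF-Y box was found in 16, the TATA box in 5, the Hox-Pbx site in 4 (of Hoxa2, Hoxb1, Hoxb8 and Hoxd11) and the Meis site in 2 (of Hoxa2 and Hoxa3). The shares of all 32851 windows of the same length were 37.4% for the NF-Y box, 13.6% for the TATA box, 8.8% for the Hox-Pbx site and 19.2% for the Meis site. Member windows held a median of 15 CpG dinucleotides, against 7 over all windows. A match describes the letters only, and no binding was measured here.

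Signal was read as deposited probe set intensity in arbitrary units. An array's floor was taken as its highest signal among 27 control probe sets for Bacillus subtilis transcripts, which came to 16.9 and 16.7 units for HSC replicates 1 and 2 and to 14.9 and 13.6 units for MPP. By its brightest probe set, 16 of the 37 genes lay above the floor on both HSC arrays and 14 on both MPP arrays, and 13 lay below it on all 4. The limma fit on log2(intensity + 6.01) took the probe sets that remained when the lowest 40% by mean level were left out, and gave 20 of the 37 genes a test, each through its brightest tested probe set. At a Benjamini-Hochberg adjusted p under 0.05, 10 of these 20 were higher in HSC, 1 was lower and 9 were not called. Over all 12382 genes tested, 7.71% were called higher and 5.90% lower. The median log2 difference was 1.14 over the 20 tested members and 0.10 over all tested genes. A gene with signal in HSC alone could pass the filter through that group, and 6 of the 10 genes called higher would have passed it by their MPP mean. Without any filter all 37 genes were tested, 6 were called higher and 1 lower, and the median over the 37 was 0.33. The shares over all 18193 genes were 3.16% higher and 2.65% lower. The median over all unfiltered probe sets depended on level. By deciles of mean level it ran from -0.08 in decile 10, the brightest, to 0.23 in decile 5. Of the 24 members above the floor on at least 1 array, both HSC arrays lay above both MPP arrays for 14, against 33.5% of all genes with such signal, and below them for 2 (Hoxb1 and Pknox1), against 21.7%.

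The Hox B cluster held a run of neighbouring genes with higher signal in HSC. Hoxb2, Hoxb3, Hoxb4, Hoxb5 and Hoxb6 were all called higher, and both HSC arrays lay above both MPP arrays for each of the 5. This order is not separate support, since the calls used the same 4 arrays. It held for 33.5% of all genes above the floor on at least 1 array. Among the 5 called genes, Hoxb4, Hoxb5 and Hoxb6 had an MPP mean below the filter level of 13.9 units and were tested through their HSC signal. With no filter 3 of the 5 were called, and Hoxb4 (limma adjusted p = 0.0997) and Hoxb6 (limma adjusted p = 0.156) were not. Hoxb3 read 301 and 419 units in HSC and 79.3 and 85.0 in MPP. Its difference was 2.03 on the log2 scale (SE 0.228, 95% interval 1.53 to 2.54, limma adjusted p = 3.51e-04), or 4.09-fold. The other Hoxb3 probe set read 61.4 and 57.0 against 23.4 and 9.36 and was also called higher, by 1.62 (SE 0.402, limma adjusted p = 0.0279). Both probe sets separated the groups without overlap.

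Hoxb5, which has been used as a reporter gene for long-term repopulating stem cells, read 73.8 and 80.2 units in HSC and 2.01 and 1.46 in MPP. Both MPP values lay below the floor, so the difference has only a bound and Hoxb5 was at least 5.40-fold higher in HSC (limma adjusted p = 5.77e-04, with a fitted log2 difference of 3.42 that depends on the pseudocount). Hoxb2, the neighbour of Hoxb3 on the 3' side, read 86.5 and 93.4 units in HSC and 23.7 and 21.1 in MPP, a difference of 1.76 (SE 0.30, 95% interval 1.09 to 2.42, limma adjusted p = 0.00413). Both MPP values of Hoxb2 lay above the floor.

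Hoxb4 and Hoxb6 rested on less even arrays. Hoxb4, the factor used to expand blood stem cells, read 48.9 and 95.01 units in HSC and 21.0 and 3.96 in MPP, so only 1 MPP array lay above the floor. Its difference was 2.18 (SE 0.512, 95% interval 1.05 to 3.32, limma adjusted p = 0.0216). The call was lost without HSC replicate 2 (1.74, limma adjusted p = 0.0977) and without MPP replicate 2 (1.46, limma adjusted p = 0.0751). The other Hoxb4 probe set read 20.2 and 28.2 against 16.6 and 25.4, with overlapping groups and no call (0.17, limma adjusted p = 0.852), and the mean of both gave 1.17 (limma adjusted p = 0.0748). Hoxb6 read 37.1 and 49.6 units in HSC and 16.4 and 3.95 in MPP, again with 1 MPP array above the floor. Its difference of 1.71 (SE 0.485, 95% interval 0.64 to 2.79) stood close to the threshold, at a limma adjusted p of 0.0486. It was lost without HSC replicate 1 (1.90, limma adjusted p = 0.0566), without HSC replicate 2 (1.53, limma adjusted p = 0.154) and without MPP replicate 2 (1.13, limma adjusted p = 0.247). In 12 alternatives that gave Hoxb6 a value, 4 kept its call, with limma adjusted p from 0.00537 to 0.247.

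The ends of the Hox B cluster looked different from its middle. Hoxb1, at the 3' end, read 14.2 and 8.05 units in HSC, both below the floor, and 15.7 and 20.5 in MPP, both above it. The value on MPP replicate 1 would lie below the HSC floors of 16.9 and 16.7 units. The Hoxb1 difference was not called (-0.51, SE 0.489, 95% interval -1.59 to 0.57, limma adjusted p = 0.572). Hoxb7, Hoxb9 and Hoxb13 at the 5' end lay below the floor on all 4 arrays. Of these, Hoxb9 read 1.18 and 2.35 units in HSC and 11.2 and 8.96 in MPP, values that have no order under the floor.

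**Figure D1:**
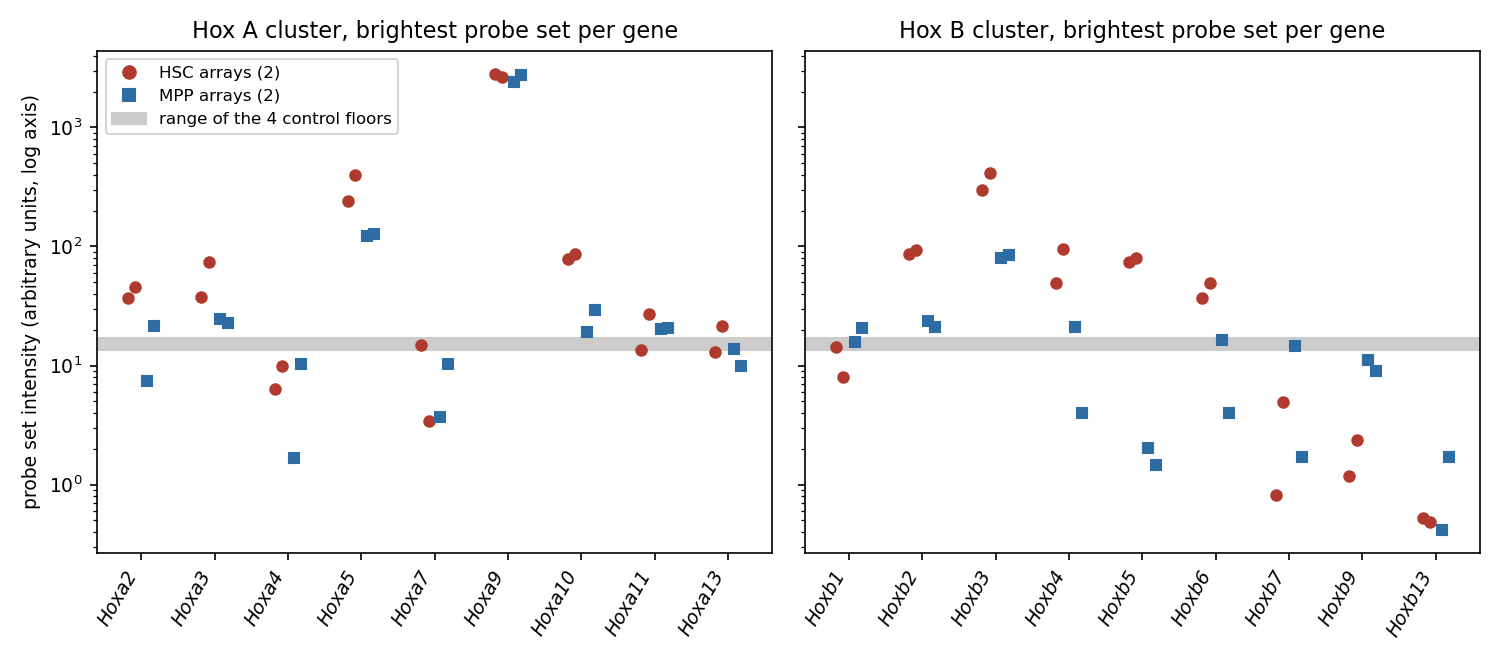
Intensity of the brightest probe set of each Hox A gene (left) and Hox B gene (right) on the 2 HSC arrays (circles) and the 2 MPP arrays (squares), in arbitrary units on a log axis; the grey band spans the 4 array floors, 13.6 to 16.9. Circles lie above squares from Hoxb2 to Hoxb6, while all 4 arrays coincide at Hoxa9; levels of different genes are not comparable, since each has its own probes.

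In the Hox A cluster 2 of 7 tested genes were called higher in HSC, and they were not neighbours. Hoxa5 read 239 and 402 units in HSC and 123 and 126 in MPP, a difference of 1.28 (SE 0.254, 95% interval 0.71 to 1.84, limma adjusted p = 0.00965). Its other probe set read 158 and 223 against 153 and 149. There both HSC values still lay above both MPP values, but the difference of 0.31 was not called (limma adjusted p = 0.455). Hoxa10, a posterior gene with a role in myeloid and stem cell growth, read 79.0 and 86.6 units in HSC and 19.0 and 29.5 in MPP, a difference of 1.58 (SE 0.321, 95% interval 0.86 to 2.29, limma adjusted p = 0.0108). The other Hoxa10 probe set read 23.6 and 8.59 against 11.6 and 10.4, with overlapping groups and HSC replicate 1 alone above the floor. It did not pass the filter, and with no filter it was not called (0.29, limma adjusted p = 0.843). The Hoxa10 call was lost without MPP replicate 1 (1.32, limma adjusted p = 0.0548) and with no filter on mean level (limma adjusted p = 0.0513), and the Hoxa5 call with no trend in the prior variance (limma adjusted p = 0.0929).

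Hoxa9, a leukemia gene that is abundant in early blood cells, was bright and level between the groups. It read 2839 and 2654 units in HSC and 2432 and 2746 in MPP, so the groups overlapped. The difference was 0.09 (SE 0.149, 95% interval -0.24 to 0.42, limma adjusted p = 0.773), and its sign turned to -0.15 with equal array medians (SE 0.147). This interval holds for 1 probe set as deposited, and the difference became 0.18 (SE 0.131) after quantile normalization. The other Hoxa9 probe set read 120 and 120 against 89.2 and 97.0 and was not called (0.35, 95% interval -0.16 to 0.86, limma adjusted p = 0.394), although both HSC values lay above both MPP values.

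Hoxa2 and Hoxa3 lay higher on both HSC arrays without passing the test. Hoxa2 read 36.9 and 45.3 units in HSC and 7.42 and 21.5 in MPP (1.29, SE 0.449, 95% interval 0.29 to 2.28, limma adjusted p = 0.102). Hoxa3 read 37.4 and 74.8 units in HSC and 24.5 and 22.9 in MPP (1.00, SE 0.382, 95% interval 0.15 to 1.84, limma adjusted p = 0.135), and was called without HSC replicate 1 (1.44, limma adjusted p = 0.0260). Its other tested probe set read 18.2 and 30.6 against 25.3 and 18.3, with overlapping groups (0.11, limma adjusted p = 0.906). The unadjusted intervals of Hoxa2 and Hoxa3 did not span 0, and a missed threshold does not show equal levels.

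Hoxa11 and Hoxa13, from the 5' end of the cluster, stood near the floor. Hoxa11 read 13.4 and 27.1 units in HSC and 20.1 and 20.7 in MPP (-0.06, SE 0.447, limma adjusted p = 0.956). Hoxa13 read 12.96 and 21.4 against 13.66 and 9.90 (0.37, SE 0.491, limma adjusted p = 0.702). In both, 1 HSC array lay below the floor and the groups overlapped. Hoxa4 and Hoxa7 lay below the floor on all 4 arrays.

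No gene of the Hox C or Hox D cluster was called, and neither of the 2 tested Hox C genes had an unadjusted limma p under 0.05. Hoxc6 read 38.1 and 55.0 units in HSC and 21.2 and 38.4 in MPP, above the floor on all arrays (0.58, SE 0.375, 95% interval -0.25 to 1.41, limma adjusted p = 0.385). Another tested Hoxc6 probe set differed by 0.19 (limma adjusted p = 0.837), and the last of its 3 read 59.8 units on HSC replicate 1 and was below the floor on the other arrays. Hoxc9 read 5.11 and 34.1 units in HSC and 27.2 and 14.9 in MPP, so the HSC arrays fell on either side of MPP (-0.32, SE 0.610, limma adjusted p = 0.796). Hoxc4, Hoxc5, Hoxc8 and Hoxc10 lay below the floor on all arrays.

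No Hox D gene passed the filter, and none exceeded the floor on both replicates of HSC or of MPP. Hoxd11 read 24.2 and 13.8 units in HSC and 5.69 and 5.62 in MPP, with HSC replicate 1 alone above the floor. Hoxd8 read 19.6 and 1.76 against 16.1 and 4.64, above the floor on replicate 1 of each group. Hoxd9 read 9.21 and 14.4 against 8.88 and 15.6, above it on MPP replicate 2. Hoxd1, Hoxd3, Hoxd10 and Hoxd13 were below it throughout. The brightest probe sets of the 13 Hox genes below the floor on every array read between 0.415 units (Hoxb13) and 16.2 units (Hoxd10), a range in which presence and absence of a transcript cannot be told apart.

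Read by position number across the clusters, most calls lay at positions 2 to 6. This range coincides with the called Hoxb2 to Hoxb6, so the count follows in part from the choice of range. Positions 2 to 6 held 13 measured genes, of which 9 were tested and 6 called higher in HSC, against 7.71% of all tested genes. Of these calls 5 were from Hox B and 1, Hoxa5, from Hox A. With no filter on mean level 4 of the 13 were called, against 3.16% of all genes, since Hoxb4 and Hoxb6 were lost. Of the 9 with signal above the floor on at least 1 array, 8 had both HSC arrays above both MPP arrays. The share over all genes with such signal was 33.5%. Positions 7 to 13 held 16 genes, of which 5 were tested and 1, Hoxa10, was called higher, a call also lost with no filter. Position 1 held Hoxb1, not called and lower on both HSC arrays, and Hoxd1, below the floor. With position 1 included, positions 1 to 6 held 15 genes, of which 10 were tested and 6 called higher. At positions 7 to 13, 8 of the 16 genes lay below the floor on all arrays, against 4 of the 13 at positions 2 to 6. At position 5 the genes Hoxa5 and Hoxb5 were both called, while Hoxc5 lay below the floor. At positions 2 and 3 the Hox B gene was called and the Hox A gene was not, although Hoxa2 and Hoxa3 lay on the same side. At position 4 Hoxb4 was called while Hoxa4 and Hoxc4 lay below the floor. At position 9 neither Hoxa9 nor Hoxc9 was called. No Hox gene below the floor on all arrays passed the filter, so counts per position also follow from which probe sets gave signal. With no filter these genes were tested and none was called. No difference between clusters or positions was tested.

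**Figure D2:**
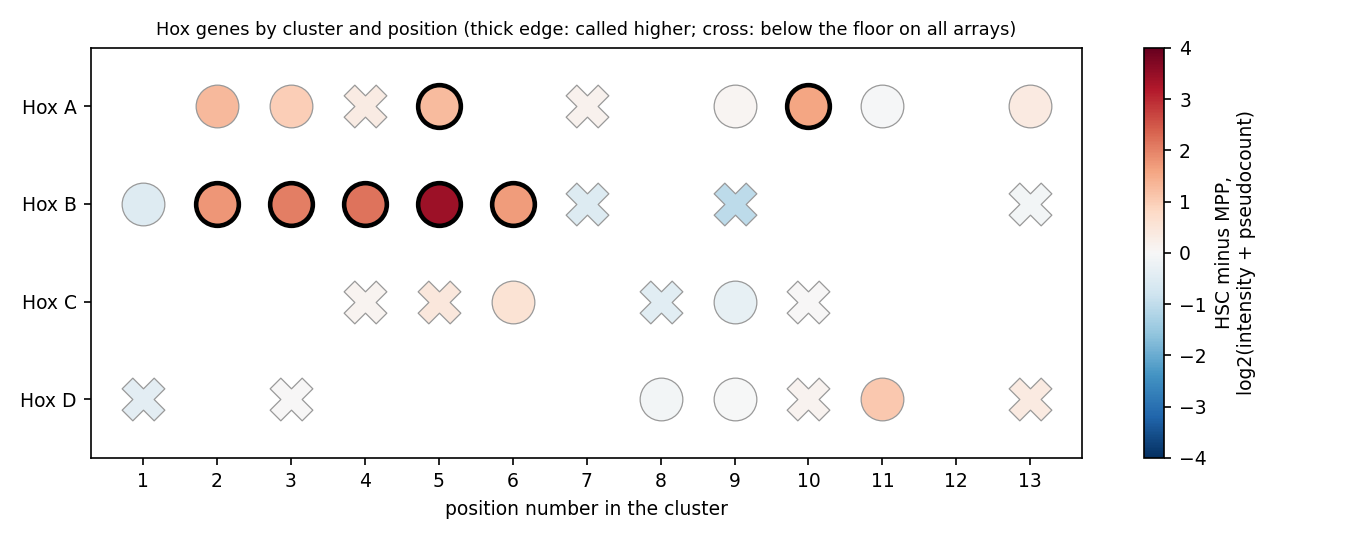
The 31 Hox genes with a probe set of their own, by cluster (rows) and position number (horizontal axis); colour gives the HSC minus MPP difference of log2(intensity + pseudocount) of the brightest probe set, thick edges mark genes called higher and crosses mark genes below the floor on all 4 arrays. The 5 thick-edged symbols in a row are Hoxb2 to Hoxb6, beside Hoxa5 and Hoxa10.

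Leaving out an array changed which Hox genes were called. The 5 Hox B calls became 3 without HSC replicate 2 and 3 without MPP replicate 2, where Hoxb4 and Hoxb6 were lost, and 4 without HSC replicate 1. Hoxb2 and Hoxb3 were called in 14 of 14 alternatives and Hoxb5 in 13 of 13, whereas Hoxb4 was called in 8 of 13. With quantile normalization or equal array medians Hoxb6 was lost and 6 Hox genes were called. Of the 10 members called higher in all, 9 read higher on HSC replicate 2 than on replicate 1, with a median ratio of 1.20. So did 13 of the 16 members above the floor on both HSC arrays, and 49.3% of all 11367 genes so measured. HSC replicate 2 also had the highest ratio of 3' to 5' signal for actin, 9.42 against 4.99 to 5.26 on the other arrays. Its part in the Hox signal was not tested beyond the count without it, which was 8 of 20 members higher.

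Among the cofactors, both tested Meis genes and Pbx3 were higher in HSC, and Pknox1 was lower. Meis1, which binds DNA with Hoxa9 and Pbx and is needed to maintain stem cells, read 1370 and 1320 units in HSC and 697 and 655 in MPP. Its difference was 0.99 (SE 0.156, 95% interval 0.64 to 1.33, limma adjusted p = 0.00265), the smallest of the 10 called differences and with the smallest SE of them. The next Meis1 probe set gave the same 0.99 (limma adjusted p = 0.00285). The last one read 539 and 557 against 404 and 240 and just missed the threshold (0.80, limma adjusted p = 0.0555). The groups did not overlap on any of the 3 Meis1 probe sets. With no trend in the prior variance the Meis1 call was lost (limma adjusted p = 0.0764).

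Meis2 read 48.2 and 58.9 units in HSC and 11.5 and 6.19 in MPP, both below the floor. It was thus at least 3.74-fold higher in HSC (limma adjusted p = 0.0103, fitted log2 difference 2.02). Its MPP mean lay below the filter level, and with no filter the call was lost (limma adjusted p = 0.0592). Its other 3 probe sets were too dim for the test, but each lay above the floor on both HSC arrays and below it on both MPP arrays, with bounds of 1.44-fold, 1.68-fold and 1.66-fold at the least. Meis3 read 15.2 and 7.004 units in HSC and 13.8 and 17.6 in MPP, above the floor on 1 array, and was not tested.

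Pbx3, of the class that binds DNA side by side with Hox proteins, read 279 and 330 units in HSC and 112 and 112 in MPP. The difference was 1.39 (SE 0.206, 95% interval 0.93 to 1.85, limma adjusted p = 0.00187), or 2.62-fold. Its other probe set read 64.6 and 41.7 against 37.4 and 37.8, on the same side but not called (0.41, limma adjusted p = 0.483). Pbx2 read 63.5 and 72.6 units in HSC and 37.7 and 63.0 in MPP (0.43, SE 0.313, 95% interval -0.26 to 1.12, limma adjusted p = 0.443), and its other probe sets were not called either (0.29 and 1.20, limma adjusted p = 0.701 and 0.142). Pknox1 was the only member called lower. It read 76.8 and 63.8 units in HSC and 157 and 160 in MPP, a difference of -1.11 (SE 0.236, 95% interval -1.63 to -0.59, limma adjusted p = 0.0130). The call was lost without MPP replicate 1 (-1.13, limma adjusted p = 0.0689) and without MPP replicate 2 (-1.10, limma adjusted p = 0.0814). Another Pknox1 probe set read 32.8 and 23.7 against 41.7 and 28.0, where the groups overlapped (-0.25, limma adjusted p = 0.739), and the mean over the tested probe sets was not called (-0.68, limma adjusted p = 0.0930).

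**Figure D3:**
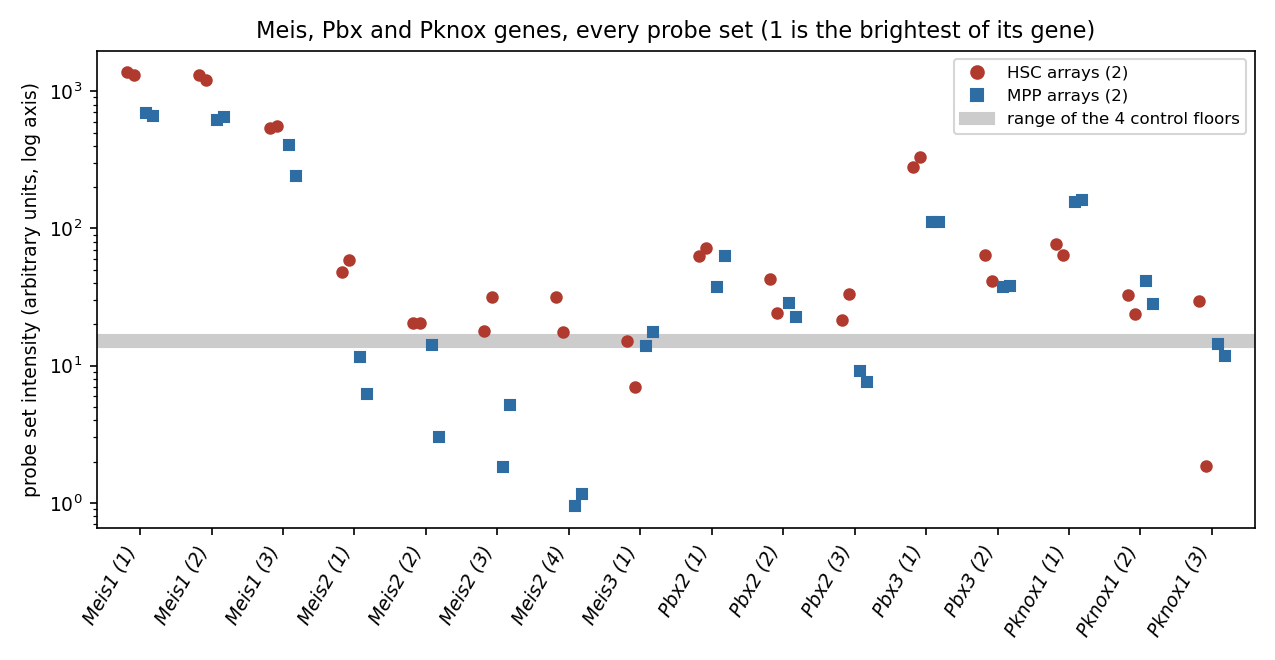
Intensity of all 16 probe sets of the 6 cofactor genes on the 2 HSC arrays (circles) and the 2 MPP arrays (squares), in arbitrary units on a log axis, numbered from the brightest of each gene; the grey band spans the array floors. Circles lie above squares on all 3 Meis1 probe sets and all 4 Meis2 probe sets, and below them on the brightest Pknox1 probe set.

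Several genes were thus read by more than 1 probe set, and these did not always give the same call. Of 10 member genes with at least 2 tested probe sets, Hoxb3 had both called higher. Meis1 had 2 of 3 called. Hoxa5, Hoxb4 and Pbx3 had 1 of 2 called higher and Pknox1 1 of 2 called lower. In all 10 genes the tested probe sets had the same sign. The called probe sets of Hoxa10, Hoxb6, Meis2 and Pbx3 were of shared or ambiguous design. None of these genes had a tested probe set of another design. The pseudocount lowers the fitted folds of dim probe sets relative to their intensities. Where a group lay below the floor, the fitted fold could still exceed the bound. It was 10.7 against at least 5.40 for Hoxb5, and 4.06 against at least 3.74 for Meis2.

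**Figure D4:**
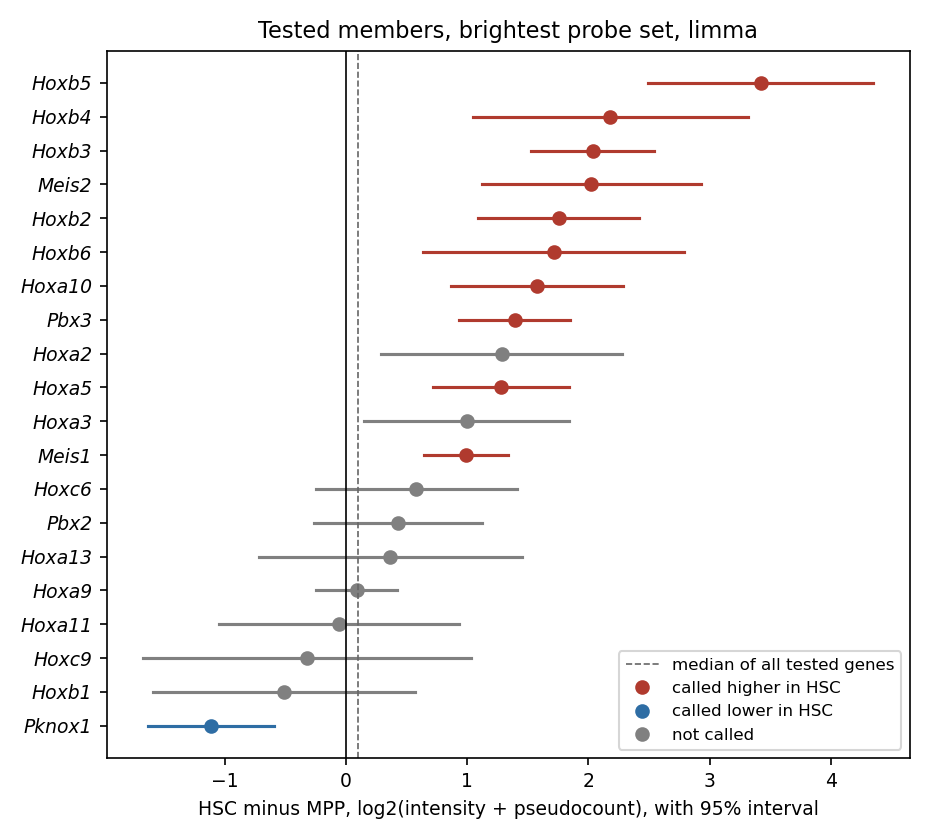
HSC minus MPP difference of the 20 tested members on the log2(intensity + pseudocount) scale, brightest tested probe set, with the 95% interval of the limma fit; red marks genes called higher, blue lower and grey not called, and the dashed line is the median of all tested genes. The called genes run from 0.99 (Meis1) to 3.42 (Hoxb5), Pknox1 lies at -1.11, and the narrowest interval belongs to the uncalled Hoxa9.

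Genes around the Hox system were read from lists of related genes. Counts of calls in these lists stand beside 7.71% higher and 5.90% lower over all tested genes. Of 9 further genes of these families, counting the Pbx-binding protein gene Pbxip1, 5 had a probe set and 1 was tested. Pbxip1, which binds Pbx proteins, read 205 and 248 units in HSC and 137 and 126 in MPP, and was called higher (0.75, SE 0.213, limma adjusted p = 0.0488), a call kept in 5 of 14 alternatives. Hoxc13 and Hoxd12 lay below the floor on all arrays. Of 17 non-coding RNA and Evx genes of the clusters, 4 had a probe set and 2 were tested. Hoxb5os, a transcript opposite Hoxb5, read 553 and 470 units in HSC and 232 and 106 in MPP (1.66, SE 0.303, limma adjusted p = 0.00605). It was called higher in 13 of 14 alternatives. Evx2 was not called (-0.51, limma adjusted p = 0.635). Of 9 other TALE genes 4 were tested and none was called at an adjusted p under 0.05, and 1 had an unadjusted limma p under 0.05, Tgif1 (-1.11, SE 0.374, limma adjusted p = 0.0916). None of the 3 Caudal genes, which act upstream of Hox genes in the embryo, passed the filter.

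Of 17 Trithorax and MLL genes, whose products keep Hox genes active, 16 were tested, 1 was called higher and 1 lower. These counts lie near the shares over all tested genes, 7.71% higher and 5.90% lower. Mllt3, which codes for the MLL fusion partner AF9, read 1300 and 1366 units in HSC and 114 and 101 in MPP, a difference of 3.56 (SE 0.178, limma adjusted p = 2.26e-06). Hcfc1 was lower (-0.65, SE 0.180, limma adjusted p = 0.0424) and kept its call in 7 of 14 alternatives. Of 17 Polycomb genes, whose products silence Hox genes, 16 were tested, 1 was called higher and 4 lower. Of the catalytic subunits, Ezh1 read 217 and 298 units in HSC and 164 and 161 in MPP. It was higher on both HSC arrays but not called (0.63, limma adjusted p = 0.0994). Ezh2 read 448 and 571 units in HSC and 1628 and 1526 in MPP (-1.63, SE 0.173, limma adjusted p = 2.57e-04). Ezh2 was called lower in 14 of 14 alternatives. Its partners Eed (-0.69, limma adjusted p = 0.0228), Suz12 (-0.75, limma adjusted p = 0.0161) and Mtf2 (-0.76, limma adjusted p = 0.0118) fell as well, though each call was lost without MPP replicate 1 and without MPP replicate 2. Without MPP replicate 1 their limma adjusted p was 0.265, 0.111 and 0.0950, and without MPP replicate 2 it was 0.0801, 0.134 and 0.127. The size also hung on the probe set, since with the mean of a gene's tested probe sets the differences were -0.328 for Eed, -0.176 for Suz12 and -0.285 for Mtf2 (limma adjusted p = 0.262, 0.556 and 0.240). Cbx7, a reader subunit of the other Polycomb complex, was higher (1.29, limma adjusted p = 0.0156), a call kept in 10 of 14 alternatives. Among the losses were no filter (limma adjusted p = 0.0534) and no trend in the prior variance (limma adjusted p = 0.0611). Without MPP replicate 2 the Cbx7 difference was 1.08. The medians over the tested genes of these lists were 0.11 and -0.10 (log2).

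Of 12 genes reported as Hox or Meis targets in blood cells, all were tested, 3 were called higher and 3 lower, with a median of 0.08. The shares over all tested genes were 7.71% higher and 5.90% lower. Trib2 (1.78, limma adjusted p = 0.00403), Epas1 (1.91, limma adjusted p = 0.00576) and Id2 (1.22, limma adjusted p = 0.0236) were higher in HSC, Id2 in 6 of 14 alternatives and at 0.12 (limma adjusted p = 0.902) without probe sets of shared or ambiguous design. Flt3 (-3.53, limma adjusted p = 9.36e-05), Cd34 (-2.66, limma adjusted p = 1.82e-04) and Sox4 (-1.28, limma adjusted p = 0.00129) were lower. Of these, Cd34 codes for the antigen of the sort gate. Of 35 homeobox genes of other classes 20 were tested, with a median of 0.08. Of these 1 was called higher and 1 lower, near the shares over all tested genes. Nkx2-3 was called higher, with 231 and 241 units in HSC against 86.5 and 70.6 in MPP (1.52, SE 0.223, limma adjusted p = 0.00174). Satb1, a chromatin organiser with a homeodomain, was called lower (-3.36, SE 0.191, limma adjusted p = 5.77e-06).

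The arrays and the sort were checked briefly. Median intensity was 21.3 to 26.9, and Pearson's r across tested probe sets was 0.949 and 0.966 within groups and 0.903 to 0.916 between them. Of 6 measured genes of the sort gate and of classical stem cell markers, 3 were called higher in HSC (Kit, Slamf1 and Procr) and 3 lower (Cd34, Flt3 and Cd48). The Kit call was kept in 7 of 13 alternatives, against 14 of 14 for Slamf1 and 13 of 13 for Procr. Cd34 read 469 and 235 units in HSC and 1967 and 2302 in MPP. Markers of other cells also moved with the groups, and over all tested genes 7.71% were called higher and 5.90% lower. Of 7 endothelial genes 3 were higher in HSC (Kdr, Cldn5 and Tie1), in 10 of 14, 10 of 13 and 7 of 13 alternatives. Summed endothelial signal was 336 to 340 units in HSC and 149 to 176 in MPP, while the defining gene Cdh5 lay below the floor on all arrays. Pecam1 read 7.21 and 18.8 units in HSC and 31.4 and 29.9 in MPP, lower on both HSC arrays but not called (-1.02, limma adjusted p = 0.207). Of 6 megakaryocyte genes 2 were higher in HSC (Pf4 and Gp9), with sums of 805 to 1060 against 392 to 545, and Gp6 lay below the floor. Gp1bb read 32.6 and 28.8 units in HSC and 34.3 and 37.8 in MPP, lower on both HSC arrays but not called (-0.20, limma adjusted p = 0.849). Of 5 measured erythroid genes 1 was higher, Klf1, with sums of 226 to 254 against 85.5 to 93.4, and Alas2 and Slc4a1 lay below the floor. Klf1 alone read 133 and 206 units in HSC and 46.2 and 35.5 in MPP. Hba-a1 went the other way and was not tested. It read 13.7 and 2.33 units in HSC, both below the floor, and 16.6 and 16.5 in MPP, both above it. Of 9 granulocyte and macrophage genes 2 were lower in HSC (Prtn3 and Csf1r), with sums of 1032 to 1556 against 2438 to 2738, and Camp lay below the floor. Of 13 genes of mesenchymal cells, which can express Hox genes themselves, Col1a2 was higher and Pdgfrb lower, with sums of 338 to 372 against 346 to 359 and Col3a1, Pdgfra and Twist1 below the floor. Of 7 measured B and T cell genes none was called at an adjusted p under 0.05, with sums of 214 to 247 against 161 to 219, and 1 of 3 tested (Cd8a) had an unadjusted limma p under 0.05. Their part in the Hox results was not tested.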

How the data were processed

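The submitters deposited probe set intensity on a linear scale, and the name of the software behind it is not given in the sources used. Without the lowest and highest 2% the deposited intensity values averaged about 100.0 on each array, so the arrays had been scaled. RNA was isolated with ISOGEN and cRNA made with a two-cycle kit, per the labels' protocols. Such amplification favours 3' ends and can blur low signals.

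Of 45101 probe sets, 64 controls were left out. A single gene symbol was given for 34945 others, of which 34741 were found in RefSeq by gene identifier, while 932 had several symbols and 9160 no symbol. Log2 array medians lay within 0.271 after the pseudocount (limit 0.5), so no normalization was added. The scale was log2(intensity + 6.01), where 6.01 is 0.25 of the overall median intensity. A filter removed the dimmest 40% of probe sets by mean and kept 27022. HSC and MPP were compared by limma 3.58.1 under R 4.3.3 (lmFit, then eBayes with trend), 2-sided, without covariates, with Benjamini-Hochberg adjustment over all tested probe sets (2 residual and 8.48 prior degrees of freedom). The code was tested on simulated data. The brightest tested probe set stood for its gene. An "at least" fold is the bright group's geometric mean over that of, per array, the higher of the floor and the dim value.

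The members and lists were chosen with earlier results of these data known. Every member is accounted for, and of other lists the called genes are named, up to 4 per direction, or where none was called those with the smallest p. The labels do not say that replicate numbers pair samples, and the main fit assumed no pairing. The correlation of same-numbered deviations was 0.027, which cannot show that no pairing existed. The number of arrays, 4, limits the precision. Alternatives varied the pseudocount, filter, scaling, variance prior, replicate block, probe set choice and each replicate.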

Additional observations from a re-analysis of the deposited data

How the results depend on the processing

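The number of probe sets called over the whole array was 2868, and it was 1697 with no filter on mean level, 1007 with no trend in the prior variance, 4358 with the replicate block and 1757 with the mean of a gene's tested probe sets. It ranged from 1594 to 3919 when each replicate was left out, the lowest without MPP replicate 2. The 10 members called higher were 6 with no filter, 6 with the lowest 60% left out (9 members tested), 6 with no trend and 6 without probe sets of shared or ambiguous design (16 members tested), and 8 to 10 with a replicate left out. The 1 member called lower was 0 with no trend and 0 with the mean of probe sets, and 0 to 1 with a replicate left out. With the replicate block 11 members were higher and 1 lower, Hoxa2 being added (limma adjusted p = 0.0386). Signs turned for Hoxa9, to -0.15 with equal array medians and -5e-04 without MPP replicate 1 (0.174 at most with an array left out), for Hoxa11, to 0.33 without HSC replicate 1 (-0.445 at the other extreme), and for Hoxc9, to 0.60 without HSC replicate 1 (-1.25 at the other extreme) and 0.01 without MPP replicate 1. None of these was called. The cause of these shifts was not tested, except that fewer members were tested where a count is given. Without probe sets of shared or ambiguous design, Hoxa10, Hoxb6, Meis2 and Pbx3 were not tested, so their calls rest on such probe sets. Over all tested probe sets the median log2 difference was 0.107 as deposited, -0.00693 after quantile normalization and -0.126 with equal array medians, and the share of calls that were higher in HSC was 56.2%, 51.9% and 30%. Values near the floor of 13.6 to 16.9 units limit what can be said of the dim Hox genes.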

Other observations

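Probe sets that name a pair of Hox genes were kept out of the counts above. One is shared by Hoxb8 and Hoxb7 and read 19.2 and 42.4 units in HSC and 17.4 and 15.6 in MPP, above the floor on all arrays. Both HSC values lay above both MPP values, but the difference was not called (0.64, SE 0.448, 95% interval -0.36 to 1.63, limma adjusted p = 0.425). The Hoxb7 probe set of its own lay below the floor on all arrays. A pair of probe sets shared by Hoxd4 and Hoxd3 read 1.06 to 10.6 units and lay below the floor throughout, like the Hoxd3 probe set of its own.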
